A study of Mus musculus with 3 samples.

Results

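The comparison described here set dendritic cells given lipopolysaccharide and type II collagen for 24 h, called fully mature (mDC), against the immature dendritic cells of the same series (imDC). Its members were the genes with a detection p-value under 0.01 on at least 1 of the 2 arrays, which gave 7973 genes of the 8055 detected on any array of the series. The detection p-value gives the rank of a probe's signal among the negative control beads of its array. Both states came from bone marrow of DBA mice aged 6 weeks, grown for 8 days in GM-CSF (20 ng/ml) and interleukin-4 (2 ng/ml), a pair of growth factors that turns marrow precursors into dendritic cells. The labels name no stimulus for imDC, and mDC received lipopolysaccharide at 1 µg/ml, a cell wall component of Gram-negative bacteria, and collagen at 50 µg/ml, a joint antigen. The series also holds a semi-mature or tolerogenic state (tDC, 10 ng/ml TNF-alpha and 50 µg/ml collagen for 4 h), whose signals are given beside the others for orientation only. The comparison of tDC with imDC uses the same imDC array.

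Dendritic cells sample their surroundings and carry antigen to T cells. Lipopolysaccharide is sensed by Toll-like receptor 4, whose adaptors activate NF-kB, which drives cytokine and chemokine genes, and interferon regulatory factors, which drive type I interferon and through it the STAT-dependent antiviral genes. Maturing cells are known to take up less antigen, to move their class II molecules to the surface and to slow new synthesis of them. Interleukin-4, present in all cultures here, is known to induce alternative activation genes such as Arg1 and Mrc1 in myeloid cells.

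Each state was measured on 1 Illumina MouseRef-8 v2 bead array, with 1 RNA preparation behind it. No difference therefore has an error, a test or a p-value, and precision is limited by how few arrays there are. The imDC array detected 11006 of 25697 probes and the mDC array 10673, with median signals of 132 and 125 intensity units. Signals below are the deposited intensities in arbitrary units, and folds are mDC against imDC after background correction and quantile normalization, so a fold exceeds the ratio of the signals where a signal is low. Higher and lower mean at least 2-fold, a log2 difference of 1. A gene detected on only 1 of the arrays has a bound, written "at least". By construction such a gene can differ only towards the array that detected it. The labels give no harvest time for imDC, and lipopolysaccharide, collagen and hours of stimulation changed together, so their parts cannot be told apart. Whole cultures were measured, so that more cells of a type and more RNA per cell cannot be told apart either.

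On the mDC array 491 of 7973 genes (6.16%) were higher and 476 (5.97%) lower, 967 (12.1%) in all. Every list count below is to be read beside these shares, and a list near them does not stand out from all genes. The median log2 difference of all genes was -0.003, the middle of them lay between -0.31 and 0.28 (quartiles), and 3848 were above 0. Both arrays detected 7257 of the genes, and among these 401 were higher and 394 lower. A further 273 were detected on mDC alone, 90 of them higher by their bound, and 443 on imDC alone, 82 of them lower. Differences of 2-fold were spread over the intensity range, reached by 13.8% of genes in the dimmest of 4 equal intensity classes, 13.7% and 11.6% in the middle classes and 9.33% in the brightest. At the detection threshold, 38 genes lay just inside with a lowest p of 0.00877, such as Actg1, Angpt2 and Ccdc17, and 10 lay just outside with 0.01002, such as Aifm3, B3galt6 and Cpsf2. At the 2-fold threshold, Irf2bpl, Rab7b and Krit1 lay just inside and Shmt2, Akap2 and Pld3 just outside, all between 1.997-fold and 2.003-fold.

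**Figure D1:**
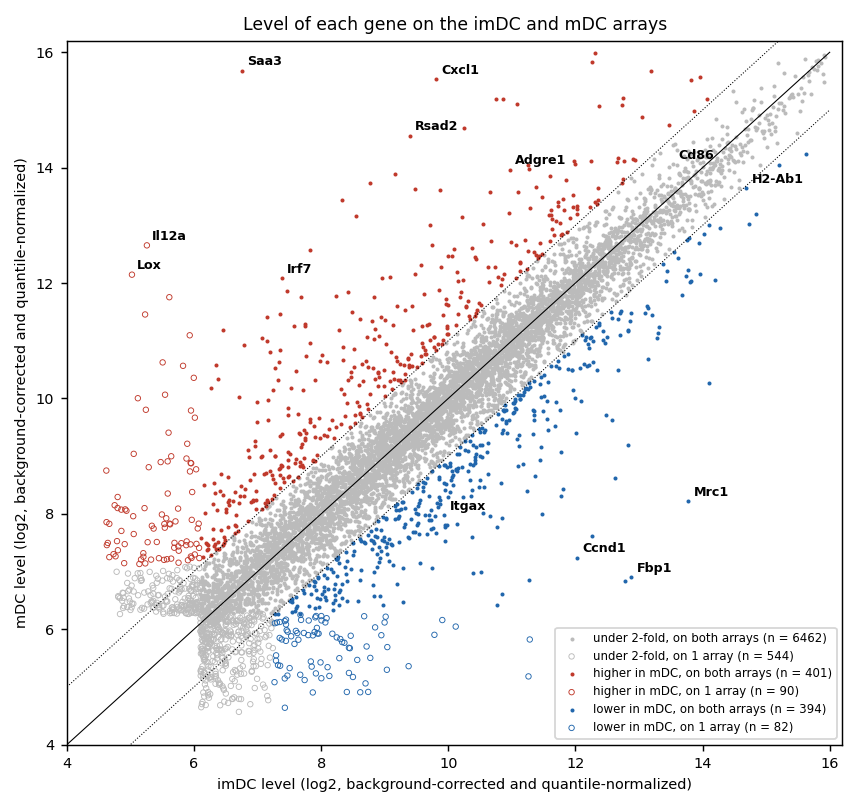
Level of each of the 7973 genes on the imDC array (x axis) and the mDC array (y axis), in log2 units after background correction and quantile normalization, with 1 array per state. Filled points are genes on both arrays, open points genes on 1, and dotted lines mark 2-fold. Red points (491) and blue points (476) lie outside the lines at every intensity, and Saa3 lies farthest above them.

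The only measure of error within this pair of arrays was the agreement of different probes of a gene. In 1812 genes with 2 probes detected on both arrays, the log2 differences of the probes disagreed by a median of 0.15, and in 95% of them by at most 0.57. Of the 967 genes at 2-fold, 247 had a second detected probe. In all 247 it had the same sign, and in 202 it also reached 2-fold. The other 720 genes rest on 1 probe. The largest disagreement among genes at 2-fold was that of Rab3il1, with log2 differences of -3.35 and -1.01, followed by Hr (-4.42 and -2.11). Among genes under 2-fold, Irgm1 stood out, because its brighter probe differed by 0.26 and its second by 2.17. This agreement covers the bead measurement and leaves out variation between cultures.

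**Figure D2:**
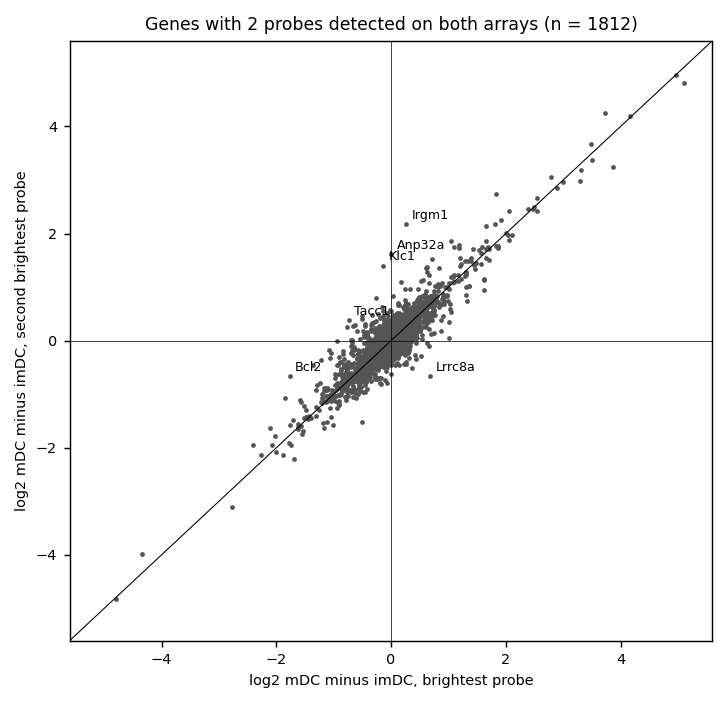
Log2 difference between mDC and imDC for the brightest probe of a gene (x axis) and its second brightest (y axis), in 1812 genes with both probes detected on both arrays. The line marks equality, points cluster along it with a median disagreement of 0.15, and the named genes lie farthest from it, Irgm1 among them.

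Acute-phase and inflammatory genes held the largest differences towards mDC. Saa3, an acute-phase apolipoprotein, had signals of 203 in imDC, 2862 in tDC and 54182 in mDC, a 487-fold difference between mDC and imDC. Hp, which encodes the haemoglobin-binding protein haptoglobin, went from 556 through 2334 to 13712 (31.2-fold). Orm1, the acute-phase protein orosomucoid, had signals of 207, 347 and 1958 (17.5-fold). Haptoglobin and orosomucoid are best known as liver products, and each of these genes was highest in mDC. Lcn2, which withholds iron from bacteria by binding their siderophores, stood at 5145, 26482 and 65567 (12.7-fold), the last value being the brightest on any array, where the scanner range can hide part of a difference. Clec4e, a receptor for mycobacterial glycolipid, had signals of 434, 6912 and 11352 (34.4-fold), and its relative Clec4d differed by 6.53-fold. Clec4a1, another C-type lectin of the same gene family, differed by 21.1-fold. Without background correction (hereafter uncorrected) the Saa3 difference was 275-fold and that of Orm1 10.4-fold.

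Several of the largest differences belonged to genes outside the classical inflammatory groups. Schip1, the schwannomin-interacting protein, had signals of 182, 758 and 2315 (26.3-fold, 14-fold uncorrected), Osbpl3, an oxysterol-binding protein, 842, 2657 and 12727 (17.9-fold), and Gpr18, a G protein-coupled receptor, 240, 602 and 2731 (19.2-fold, 12.4-fold uncorrected). All were lowest in imDC and highest in mDC. Among genes that only mDC detected, Lox, the enzyme that cross-links collagen, had a signal of 111 in imDC and 4509 in mDC, at least 66.1-fold. Cyp1b1, a cytochrome P450 enzyme and a known target of the aryl hydrocarbon receptor, had 136 and 3455 (at least 50.4-fold). Vnn3, a member of the vanin family, Ednrb, an endothelin receptor, and Fst, the activin antagonist follistatin, differed by at least 40.97-fold, 22.1-fold and 15.0-fold. For these 5 genes the tDC signals were 121, 200, 192, 527 and 133 in the order given, so Lox and Fst had tDC signals close to those of imDC, whereas Ednrb was already brighter in tDC. Pou2f2, a transcription factor of lymphoid cells, and Mfap3l followed at 12.92-fold and 13.04-fold or more (6.36-fold and 6.41-fold uncorrected). Wfdc21, a whey acidic protein family member, had 174, 352 and 1538 (18.7-fold, 9.74-fold uncorrected). Fabp3, a fatty acid-binding protein, and Ppfia3, a liprin, were at least 11.9-fold and 9.90-fold higher. The brightest probe of Ppfia3 differed by a log2 value of 3.81 and its second by 1.51, so its bound depends on the probe. The bounds without background correction came to at least 30.3-fold for Lox, 23.2-fold for Cyp1b1, 19.0-fold for Vnn3, 10.5-fold for Ednrb and 7.28-fold for Fst, and that of Ednrb to 8.36-fold with the mean of its probes.

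**Figure D3:**
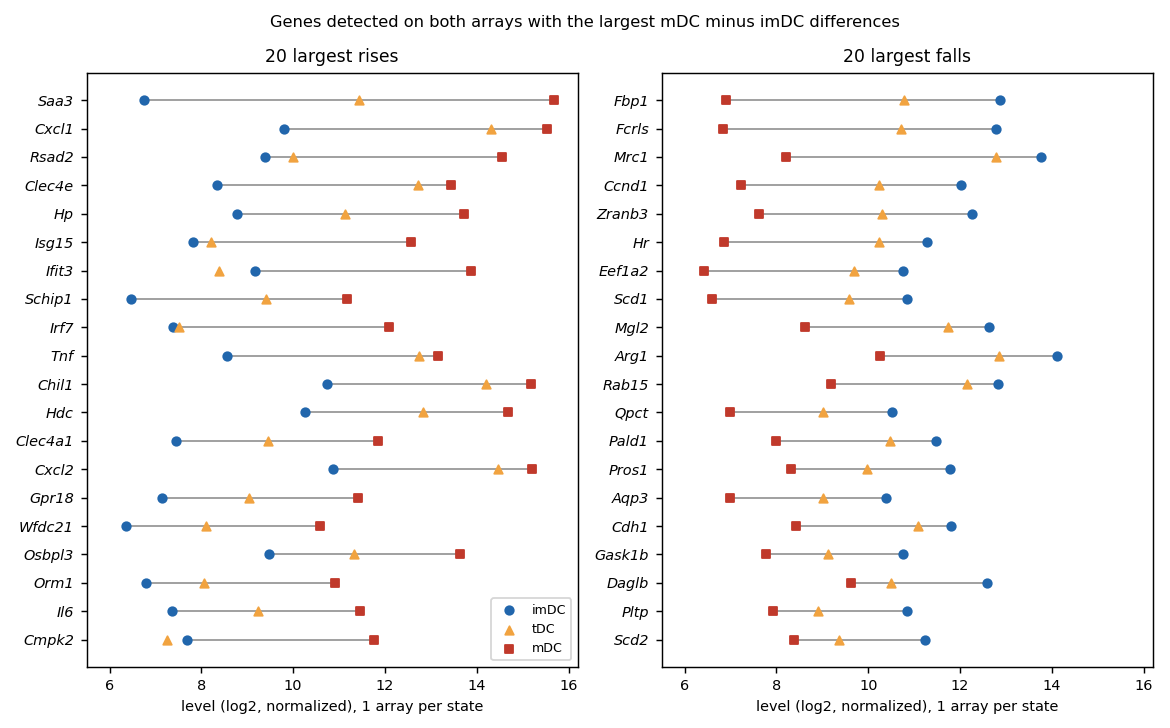
Log2 level on the 3 arrays (circle imDC, triangle tDC, square mDC) of the 20 genes highest in mDC and the 20 lowest in mDC against imDC among genes detected on both, 1 array per state. The higher genes run from 16.9-fold (Cmpk2) to 487-fold (Saa3) and the lower genes from 7.20-fold (Scd2) to 63.1-fold (Fbp1). Points of tDC stand beside those of imDC for Isg15 and Irf7, whose mDC points lie far to the right.

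Antiviral genes that interferon induces had the largest share of members at 2-fold among the 41 pathway lists. Of 31 measured, 28 were higher in mDC, 0 were lower and all 31 were above 0, with a median log2 difference of 2.245 beside -0.003 for all genes and 6.16% of all genes higher. Both arrays detected 24 of the 31. The others, detected on mDC alone, could not fall below 0 by their bounds. Rsad2, which encodes viperin, a radical enzyme that makes a chain terminator of viral RNA, had signals of 803, 1105 and 23265 in imDC, tDC and mDC (35.7-fold). Isg15, a ubiquitin-like modifier, had 333, 376 and 6097 (27.0-fold), and Ifit3, a partner of IFIT proteins that bind viral RNA, 700, 413 and 15127 (26.4-fold). In each of these the tDC signal was close to or below that of imDC and only mDC was high. Cmpk2, a mitochondrial nucleotide kinase, differed by 16.9-fold and Oasl2 by 13.3-fold. Oasl1, which mDC alone detected (151, 149 and 2184), was at least 31.9-fold higher, or 14.9-fold uncorrected and 14.4-fold with its probes averaged. Oas2 and Oas3, enzymes that make the activator of RNase L, differed by 7.52-fold and at least 6.54-fold (3.49-fold uncorrected), and Mx2 by 6.36-fold. Among the sensors of viral RNA, Ddx58 (RIG-I) differed by 5.07-fold and Dhx58 by 4.46-fold. Ifitm3, which blocks viral entry at membranes, stood at 6995, 8747 and 38239 (5.48-fold). Tor3a (1.70-fold), Mx1 (1.54-fold) and Ifih1 (at least 1.12-fold) were the members under 2-fold. The Oas genes resemble each other in sequence, so a probe of one can bind the transcripts of another.

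Guanylate-binding and immunity-related GTPases, which attack vacuoles that hold bacteria or parasites, were higher for 6 of 9 measured (median 1.599). Igtp had signals of 1218, 1112 and 5630 (5.32-fold), Irgm2 771, 804 and 2960 (4.62-fold) and Gbp2 4134, 5967 and 17802 (4.39-fold). Gbp7, Gbp5 and Gbp3 differed by 3.14-fold, 3.03-fold and 3.01-fold. Irgm1, the regulator of the group, is the gene whose 2 probes disagreed, as given above, so its count under 2-fold depends on the probe.

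Promoters of these genes are shown because a known element is a feature of interferon-induced genes. The antiviral list and the GTPases were chosen as such genes, with earlier results of these data known. A high share of the element in them therefore comes with that choice and is not a separate result. The interferon-stimulated response element was searched as GAAANNGAA on both strands, with overlapping copies allowed, in RefSeq promoter windows from 250 bases before to 50 after a start site (GRCm38.p6, the C57BL/6J reference and not the DBA strain of these mice). It was present in 46.2% of 26 windows of the antiviral list (12 windows, 21 genes, 95% exact binomial interval 26.6 to 66.6). It was in 88.9% of 9 windows of the GTPases (8 windows, 8 genes, 51.8 to 99.7). Windows of the same gene or of related genes are not independent, which this interval and those below ignore, so they are too narrow. All 32851 windows of the table held it in 8.56%, windows of measured genes in 7.27%, those of genes higher in mDC in 15.5% (75 of 485) and those of lower genes in 8.67% (45 of 519). A match is a string of letters and not a measured binding site. In the following stretches of 100 bases, each written 5′ to 3′ on the strand of its gene, capitals mark the copies of the element. Only windows that hold it are printed.
Rsad2 (chr12:26456517-26456616, reverse strand): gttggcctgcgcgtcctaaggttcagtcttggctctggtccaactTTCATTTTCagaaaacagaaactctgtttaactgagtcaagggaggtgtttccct
Isg15 (chr4:156200830-156200929, reverse strand): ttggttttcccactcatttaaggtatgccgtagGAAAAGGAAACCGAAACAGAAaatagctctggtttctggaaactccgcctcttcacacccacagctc
Ifit3 (chr19:34583382-34583481, forward strand): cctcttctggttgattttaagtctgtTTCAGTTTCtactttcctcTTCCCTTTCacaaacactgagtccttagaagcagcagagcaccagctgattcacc
Oas3 (chr5:120777674-120777773, reverse strand): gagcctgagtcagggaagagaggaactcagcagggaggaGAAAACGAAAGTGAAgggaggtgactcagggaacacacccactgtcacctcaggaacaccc
Igtp (chr11:58199477-58199576, forward strand): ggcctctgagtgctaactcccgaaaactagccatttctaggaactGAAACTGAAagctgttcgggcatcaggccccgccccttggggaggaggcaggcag
Irgm2 (chr11:58214868-58214967, forward strand): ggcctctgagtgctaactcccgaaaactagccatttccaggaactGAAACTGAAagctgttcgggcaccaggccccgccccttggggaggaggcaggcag

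In Isg15 3 copies overlapped within 1 run of capitals, Ifit3 and Oas3 had 2 each, and the other promoters had 1. Rsad2 and Ifit3 carried the element in the reverse orientation. The stretches of Igtp and Irgm2, neighbours on the same chromosome, had the same base at 98 of 100 positions, so the pair does not give 2 independent matches.

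Transcription factors downstream of interferon divided. Of 13 interferon regulatory factors and STATs, 5 were higher, 0 were lower and the median was 0.64. Irf7, which amplifies type I interferon, had signals of 266, 261 and 4323 (26.1-fold) and was the only member above 3-fold. Stat2 had signals of 629, 571 and 1456 (2.85-fold), Irf1 4240, 5541 and 9567 (2.24-fold) and Irf8, which the lineage of type 1 dendritic cells needs, 1010, 1227 and 1925 (2.18-fold). Irf9, a DNA-binding subunit of the complex that binds the element above, stood just below the threshold at 1.88-fold. Stat5a, at 2.01-fold, went under 2-fold in 4 of the other settings. Stat3 (1.55-fold), Stat4 (1.53-fold) and Irf5 (1.17-fold) were slightly higher in mDC. Irf3 and Stat6, which are activated by phosphorylation of standing protein, differed by log2 values of -0.07 and -0.05. Irf4, which interleukin-4 cultures express, had the lowest value with signals of 6752, 5340 and 3733 (log2 difference -0.84), and Irf2 differed by -0.48.

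Cytokine genes included 10 of 20 higher in mDC and 0 lower (median 0.90). Both arrays detected 12 of the 20, and the rest have bounds. Il12a, the p35 subunit of interleukin-12, had a background signal of 122 in imDC, 447 in tDC and 6489 in mDC, a difference of at least 94.0-fold. Tnf had signals of 491, 6956 and 9326 (24.4-fold), Il6 264, 685 and 2822 (17.2-fold) and Il1b 4957, 33827 and 59460 (11.9-fold). Tnf and Il1b were thus already high in tDC, whereas Il12a and Il6 had most of their signal in mDC. Il10, an inhibitory cytokine, and Csf2 (GM-CSF, which was also in the medium as protein) were detected in mDC alone, at least 4.57-fold and 4.01-fold higher (Il10 2.60-fold uncorrected). Members with known roles in T cell polarization included Ebi3 (3.12-fold) and Il27 (at least 2.05-fold), the chains of interleukin-27. Il23a (at least 1.71-fold), Il15 (1.40-fold) and Il18 (log2 difference -0.81) did not reach 2-fold. Without background correction the bound of Il12a was 42.9-fold.

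Chemokines included 9 of 18 higher in mDC and 2 lower (median 0.88). Cxcl1, a neutrophil attractant, had signals of 1031, 20684 and 49312 (53.1-fold), and Cxcl2 2028, 23265 and 37816 (20.1-fold). Cxcl10, an interferon-induced attractant of T cells, stood at 154, 632 and 1335 and was at least 19.1-fold higher (9.16-fold uncorrected). These 3 were above imDC in both stimulated states. Ccl22 (3.31-fold), Ccl3 (3.25-fold), Ccl2 (2.35-fold), Cxcl16 (2.31-fold) and Ccl5 (2.19-fold) were also higher. Ccl17, an attractant induced by interleukin-4, had signals of 48353, 38720 and 50514 and a log2 difference of 0.00 at an intensity close to the upper limit. Ccl6 (9036, 6966 and 1653) was 5.48-fold and Ccl24, an eosinophil attractant, 2.86-fold lower. Of 9 chemoattractant receptors, Ccrl2, a receptor that presents chemerin without signalling, was 9.75-fold and the formyl peptide receptor Fpr2 5.58-fold higher. Cxcr2 (4.41-fold), Ccr6 (3.08-fold) and Cxcr4 (2.07-fold) were lower, of which Ccr6 was at 1.86-fold when its probes were averaged and Cxcr4 at 1.98-fold uncorrected. Ccr7, which guides maturing dendritic cells to lymph nodes, had signals of 2863, 3892 and 4423 (1.65-fold).

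Genes of NF-kB and its feedback included 13 of 19 higher in mDC and 0 lower (median 1.12). Nfkbiz, a nuclear co-regulator of Il6 and Lcn2, had signals of 993, 5992 and 6495 (7.55-fold), Sod2, the mitochondrial superoxide dismutase, 6859, 22756 and 34710 (5.16-fold), and Tnfaip3, the ubiquitin-editing brake A20, 1470, 5448 and 6226 (4.70-fold). The inhibitors Nfkbia, Nfkbib and Nfkbie differed by 2.38-fold, 2.25-fold and 2.17-fold. Among subunits, Rel (2.17-fold) passed 2-fold, while Relb (1.85-fold), Nfkb2 (at least 1.45-fold) and Rela (1.39-fold) did not. The tDC signal exceeded that of mDC for some of these genes, for example Rel with 508, 1309 and 885 and Tnfaip2 with 4243, 13372 and 10734. The kappa B element, searched as GGANNTTCC on both strands, was in 38.1% of 21 promoter windows of this list (8 windows, interval 18.1 to 61.6) and in 41.7% of 12 windows of the chemokines (5 windows, 15.2 to 72.3). The share was 4.26% in all windows, 5.09% in those of measured genes, 7.22% in those of higher genes (35 of 485) and 4.62% in those of lower genes (24 of 519). These lists too were chosen with earlier results known, so their shares are not a separate result. The element was not confined to these 2 lists. Its share was 33.3% in the GTPases (3 of 9 windows), 33.3% in the cytokines (5 of 15) and 23.1% in the antiviral list (6 of 26). In mitosis it was 11.8% (2 of 17) and in replication 6.9% (2 of 29). The following stretches, printed as before with the element in capitals, belong to the 2 list members and 2 chemokines chosen for display.
Tnfaip3 (chr10:19015380-19015479, reverse strand): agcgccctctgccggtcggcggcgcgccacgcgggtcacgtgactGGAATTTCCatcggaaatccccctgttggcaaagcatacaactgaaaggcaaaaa
Tnfaip2 (chr12:111442529-111442628, forward strand): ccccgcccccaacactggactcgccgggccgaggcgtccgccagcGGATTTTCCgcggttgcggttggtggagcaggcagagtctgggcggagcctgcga
Cxcl1 (chr5:90891130-90891229, forward strand): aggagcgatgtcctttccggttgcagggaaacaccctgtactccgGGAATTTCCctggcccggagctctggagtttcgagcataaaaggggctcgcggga
Cxcl2 (chr5:90903758-90903857, forward strand): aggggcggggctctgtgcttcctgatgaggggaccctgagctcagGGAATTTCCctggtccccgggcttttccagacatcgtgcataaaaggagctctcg

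The elements of Cxcl1 and Cxcl2, which are neighbouring and related genes, were the same GGAATTTCC, which also stood in Tnfaip3, and that of Tnfaip2 was GGATTTTCC.

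Receptor feedback was mixed, with 7 of 17 higher and 1 lower (median 0.49). Irak3, a kinase-dead brake on Toll-like receptor signalling, had signals of 1340, 4875 and 9195 (7.59-fold). The phosphatases Dusp16 (3.66-fold), Dusp4 (3.16-fold) and Dusp2 (2.15-fold) and the JAK inhibitors Socs3 (2.74-fold) and Socs1 (2.10-fold) were higher, and the decoy receptor Il1r2 was 2.63-fold lower. Socs2 and Cish, targets of STAT5 and thereby of GM-CSF, differed by log2 values of -0.15 and -0.08. Of 20 pattern recognition genes 6 were higher and 1 lower (median 0.435). Cd14, which delivers lipopolysaccharide to its receptor, had signals of 5363, 23886 and 34678 (6.56-fold), and Tlr2 had 7038, 24916 and 17849 (2.57-fold). The lipopolysaccharide receptor Tlr4 itself had 2726, 3234 and 2122 (log2 difference -0.28) and its partner Ly96 1918, 2381 and 3212 (1.84-fold). The endosomal receptor Tlr8 was at least 3.20-fold lower (2.05-fold uncorrected). Dusp2, Nlrp3 and Tlr1 went under 2-fold without background correction.

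**Figure D4:**
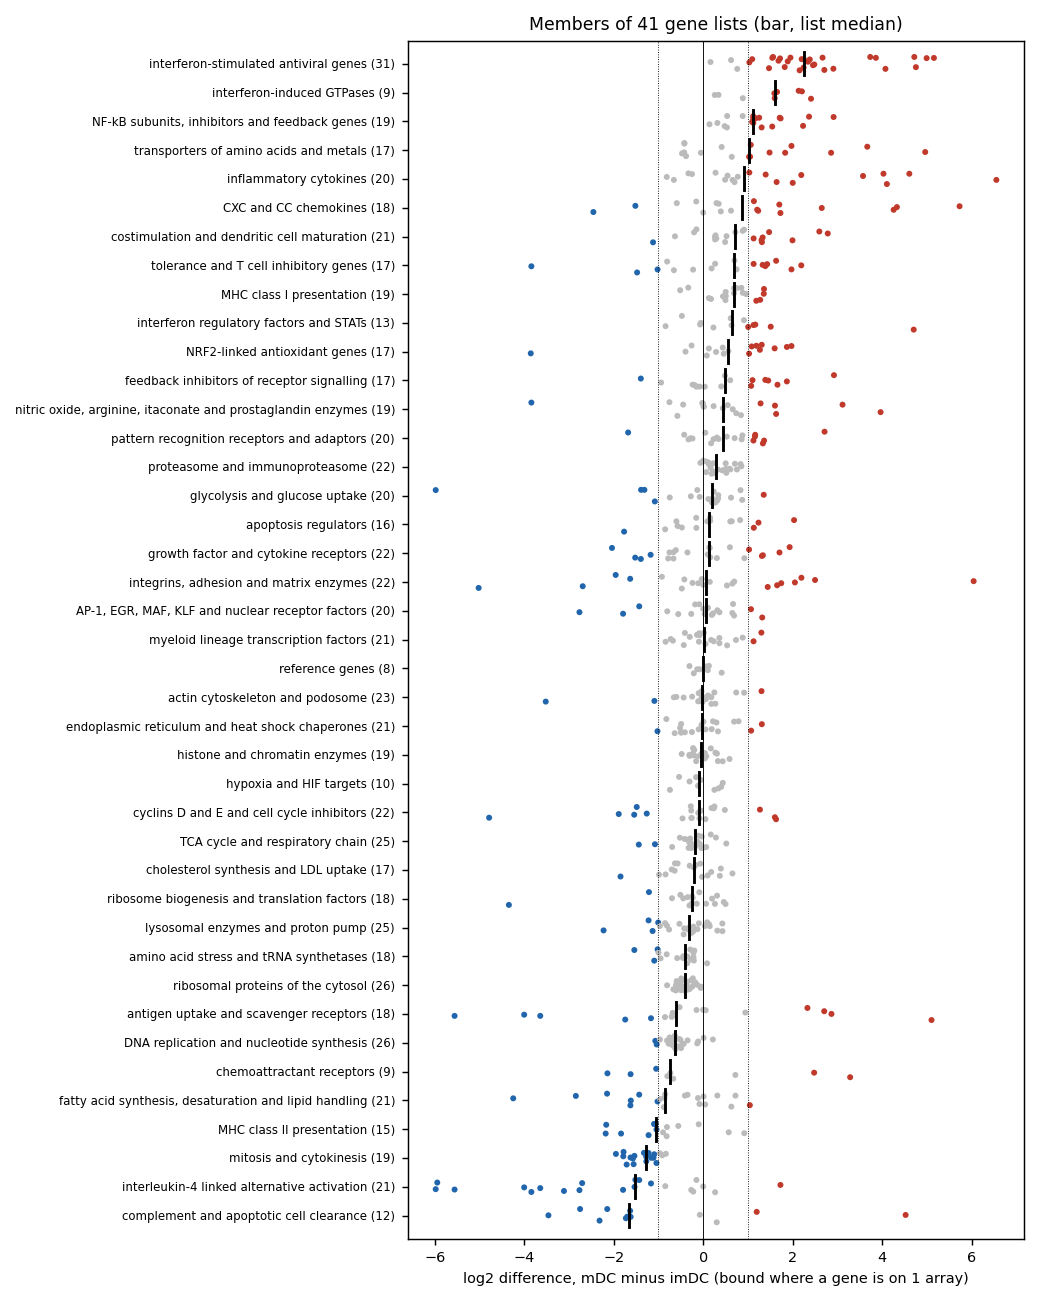
Log2 difference between mDC and imDC of each measured member (points) of 41 gene lists, with the number measured beside the name, sorted by the list median (black bar). Red and blue points are at 2-fold or more, dotted lines mark 2-fold, and genes on 1 array are placed at their bound. Antiviral genes lie at the top (median 2.245) and complement and apoptotic cell clearance at the bottom (-1.66).

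Antigen presentation differed by class. MHC class I presentation genes included 4 of 19 higher in mDC and 0 lower (median 0.69). Nlrc5, the transactivator of class I genes, had signals of 816, 549 and 1777 (2.57-fold) and the peptide editor Tapbpl 758, 1156 and 1534 (2.42-fold). Tap1, Psmb8 and Psmb9, whose genes lie together in the MHC, reached 1.95-fold, 1.81-fold and 1.63-fold. The proteasome as a whole had 20 of 22 members above 0 and 0 at 2-fold (median 0.295), so the differences were small and of the same sign in nearly all. The constitutive catalytic subunit Psmb5 reached 1.79-fold. MHC class II presentation genes included 8 of 15 lower in mDC and 0 higher (median -1.04) beside 5.97% of all genes lower. H2-DMa and H2-DMb1, which load peptides, had imDC signals of 6606 and 5244 and mDC signals of 1451 and 1464 (4.53-fold and 3.57-fold lower). The protease Lgmn had 9958, 5873 and 2227 (4.50-fold lower). Ciita, the transactivator of class II genes, had 1130, 753 and 513 (2.14-fold lower). H2-Oa (1.49-fold higher) and Marchf1 (1.89-fold higher), which removes class II from the surface, stood apart from the rest. H2-Ab1 (2.06-fold lower) went under 2-fold with median scaling, and H2-Eb1, H2-Ob, Ctsl and Ciita without background correction. Probes of H2 genes can bind related genes and alleles of this strain unequally.

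Costimulation and maturation genes included 8 of 21 higher in mDC and 1 lower (median 0.72). Cd40, the receptor for the T cell signal CD40L, had signals of 2605, 6593 and 16945 (6.89-fold), and Cd70, a ligand of CD27, 224, 396 and 816 (6.05-fold). Cd86, Cd80 and Cd83, the usual surface markers of maturity, had mDC to imDC differences of 1.44-fold, 1.23-fold and 1.20-fold, with imDC signals of 11787, 2279 and 9544. The imDC culture thus already gave signals for these markers well above background. Slamf1 (2.78-fold), Cd200 (2.51-fold), Il15ra (2.49-fold) and Marcksl1 (2.47-fold) were higher, and Fscn1, which bundles actin in dendrites, reached 1.89-fold. Cd44 was 2.17-fold lower, and under 2-fold with the mean of its probes. Inhibitory genes of the tolerance list went both ways, with 7 of 17 higher and 3 lower (median 0.70). Ido1, which breaks down tryptophan, had signals of 222, 185 and 395 (2.70-fold), and Cd274 (PD-L1) 14861, 25645 and 32466 (2.19-fold). Lgals9 reached 1.68-fold, and Tgfb1 differed by a log2 value of -0.66.

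The list of genes linked to interleukin-4 and alternative activation included the 3 largest differences towards imDC among genes on both arrays. Its members were chosen with earlier results of these data known, so holding these genes is not a separate result. Of 21 genes of this list, 16 of them on both arrays, 14 were lower and 1, Ccl22, was higher (median -1.535). Fbp1, an enzyme of gluconeogenesis, had signals of 7636 in imDC, 1823 in tDC and 194 in mDC (63.1-fold lower). Fcrls, an Fc receptor-like scavenger, had 7077, 1753 and 188 (61.6-fold lower), and Mrc1, the mannose receptor, 14084, 7250 and 358 (47.1-fold lower). In all 3 genes mDC was lowest and tDC lay between. Arg1, arginase, had 17457, 7597 and 1258 (14.3-fold lower), Retnla 2791, 1635 and 457 (6.53-fold lower) and F13a1, a coagulation factor of macrophages, was at least 8.65-fold lower (4.65-fold uncorrected). The transcription factors of the group were lower too, Klf4 by 6.80-fold (1468, 586 and 264), Egr2 by 3.46-fold and Pparg by 2.70-fold. Chil3 and Tgm2, further genes of this programme, differed by log2 values of -0.22 and -0.85 at bright signals. Without background correction Fbp1 was 37.5-fold and Fcrls 35.9-fold lower.

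Other large differences towards imDC lay outside this list. Zranb3, a helicase of stalled replication forks, had signals of 5001, 1340 and 265 (25.2-fold lower), Hr, the hairless corepressor, 2632, 1290 and 190 (21.4-fold lower) and Rab15, a Rab GTPase, 7388, 4725 and 628 (12.4-fold lower). In each, tDC lay between the others. Hr was 12.8-fold lower uncorrected and 9.62-fold with its probes averaged. Qpct, glutaminyl cyclase, was 11.5-fold, Pald1, the paladin gene, 11.2-fold, Aqp3, a channel for water and glycerol, 10.6-fold and Gask1b 7.94-fold lower. Aqp3 and Qpct were 6.77-fold and 7.33-fold lower uncorrected. The lipid genes Daglb, a diacylglycerol lipase, and Pltp, the phospholipid transfer protein, were 7.75-fold and 7.55-fold lower, and 3.49-fold and 5.01-fold with their probes averaged. Of genes that imDC alone detected, the kallikrein Klk1b11 (2610, 981 and 113) was at least 32.0-fold lower, or 15.8-fold uncorrected. Bex4, Chn2, the beta-chimaerin gene, and Slco2b1, an organic anion transporter, were at least 6.83-fold, 6.43-fold and 6.01-fold lower, and between 3.39-fold and 3.78-fold uncorrected.

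Uptake and clearance receptors had members in both directions. Of 18 uptake and scavenger receptors 4 were higher and 5 lower (median -0.605). The galactose lectins Mgl2 (6403, 3533 and 447) and Clec10a (1106, 455 and 150) were 16.03-fold and at least 12.5-fold lower (Clec10a 6.49-fold uncorrected), and the beta-glucan receptor Clec7a (9383, 8220 and 2802) 3.35-fold lower. Marco, a scavenger receptor for bacteria, stood at 300, 271 and 1441 (7.30-fold higher), and Stab1 was 5.03-fold higher (2.85-fold without background correction). The Fc receptors Fcgr1, Fcgr3, Fcgr2b and Fcgr4 differed by log2 values of 0.06, -0.53, -0.71 and -0.85. Complement and apoptotic cell clearance had the lowest median of the lists, -1.66, with 8 of 12 lower and 2 higher. Both arrays detected 7 of the 12, and the rest have bounds. Both chains of C1q that were measured were lower, C1qb by at least 6.74-fold and C1qc by at least 3.31-fold (3.74-fold and 2.10-fold uncorrected). Pros1 and Gas6, the bridging ligands between dying cells and their receptors, were 11.01-fold and 3.08-fold lower, and the receptors Mertk and Axl 4.98-fold and 4.42-fold lower. Axl had signals of 18632, 8464 and 4225. Mfge8, another bridging protein, was 3.24-fold and Trem2 3.10-fold lower. Against these, the alternative pathway protease Cfb stood at 132, 144 and 1591 (at least 23.04-fold higher, or 10.9-fold without background correction) and C2 was at least 2.29-fold higher, a bound that was 1.58-fold without background correction.

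Enzymes of inflammatory mediators included 5 of 19 higher in mDC and 1 lower (median 0.44). Ptges, the inducible prostaglandin E synthase, had signals of 134, 251 and 1098 (at least 15.6-fold higher), and Ptgs2, cyclooxygenase 2, was at least 3.04-fold higher. Nos2, the inducible nitric oxide synthase, had 149, 133 and 640 (at least 8.67-fold). Without background correction the bounds of Ptges and Nos2 were 7.57-fold and 4.45-fold, and that of Ptgs2 went under 2-fold, to 1.92-fold. The arginases moved apart, since Arg2, the mitochondrial form, had 1166, 3611 and 3170 (3.10-fold higher) while Arg1 was lower as given above. Leukotriene enzymes Alox5, Lta4h and Ltc4s differed by 1.58-fold, 1.01-fold and 1.00-fold. Transporters of amino acids and metals included 9 of 17 higher in mDC and 0 lower (median 1.03). Cp, the ferroxidase ceruloplasmin, was at least 7.26-fold higher (3.81-fold uncorrected). The phagosomal metal exporter Slc11a1 (NRAMP1) stood at 8479, 13882 and 30195 (3.56-fold), and the iron importer Slc11a2 was 2.80-fold higher. The ferroportin gene Slc40a1 and the ferritin gene Fth1 differed by log2 values of -0.47 and -0.05, and the metallothioneins Mt1 and Mt2 by -0.42 each.

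Glycolysis and respiratory chain genes had medians close to that of all genes. Of 20 glycolysis genes 1 was higher and 4 lower (median 0.20), beside 6.16% and 5.97% of all genes. The higher gene was Slc2a6, a glucose transporter family member of lysosomes (4077, 12380 and 10583, 2.56-fold). Hk2, Slc2a1 and Ldha differed by 1.26-fold, 1.26-fold and 1.24-fold, and the muscle and platelet isoforms of phosphofructokinase went apart, Pfkm at 1.78-fold higher and Pfkp at 2.62-fold lower. Aldoc was 2.49-fold and Pfkfb4 2.12-fold lower. The fourth lower member was Fbp1, the gluconeogenic enzyme given above, with the largest difference of the list. None of 10 hypoxia genes differed by 2-fold, which says little in a list this small beside 12.1% of all genes. Of 25 TCA cycle and respiratory chain genes, the isocitrate dehydrogenases Idh1 (5901, 3901 and 2141, 2.71-fold lower) and Idh2 (1602, 1027 and 725, 2.11-fold lower) were at 2-fold, and the median was -0.19. Mitochondrial Idh3a, the subunit of the cycle's NAD-dependent enzyme, differed by -0.31. Idh2 stood at 1.99-fold without background correction.

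Lipid synthesis and handling had 7 of 21 genes lower and 1 higher (median -0.85). The stearoyl-CoA desaturases, which make monounsaturated fatty acids, were among the lowest in mDC. Scd1 had signals of 2014, 840 and 172 (19.0-fold lower) and Scd2 2564, 739 and 394 (7.20-fold lower). In both, imDC was highest and mDC lowest. Without background correction Scd1 was 10.7-fold lower. Abcg1, a sterol exporter, had 3400, 632 and 780 (4.43-fold lower), Acsl3 was 3.09-fold, the monoglyceride lipase Mgll 3.07-fold and Acaca, the first enzyme of fatty acid synthesis, 2.03-fold lower. Fads1 stood just under the threshold at 1.95-fold lower. Acly, which supplies acetyl-CoA, had 14593, 15345 and 13743 (1.06-fold lower). Dgat2, the last enzyme of triglyceride synthesis, was 2.06-fold higher and 1.95-fold without background correction. Of 17 cholesterol synthesis genes 1, Dhcr7 (3.60-fold lower), was at 2-fold, and the median was -0.21. Their tDC signals stood above both others in several cases, as for Hmgcs1 with 6232, 13087 and 4996 and Sqle with 2786, 5478 and 1625.

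Mitotic genes were lower as a group. Of 19 genes of mitosis and cytokinesis 16 were lower, 0 were above 0 and the median was -1.275. Kif23, a motor of the cleavage furrow, had signals of 1463, 805 and 398 (3.87-fold lower), Birc5 (survivin) 2311, 1280 and 673 (3.45-fold lower) and Cdca8 (borealin) 843, 480 and 276 (3.44-fold lower). Each had its tDC signal between the other values. Cenpa, the centromeric histone, had 14141, 9933 and 4773 (2.94-fold lower), and Cdc20, the activator of anaphase, was 3.27-fold lower. The smallest difference was that of Aurka (1.78-fold). DNA replication and nucleotide synthesis genes differed less, with 2 of 26 at 2-fold, Mcm10 (2.10-fold) and Tk1 (2.06-fold), and 2 above 0 (median -0.625). Tk1 was at 1.87-fold uncorrected and 1.55-fold with its probes averaged. The replicative helicase subunits Mcm2 to Mcm7 differed by log2 values of -0.63, -0.69, -0.71, -0.58, -0.75 and -0.35. The thymidylate synthase gene Tyms (0.22) and Pcna (0.01) were the members above 0. The E2F site, searched as TTTGGCGC on both strands, was in 13.8% of 29 replication promoter windows (4 windows, interval 3.89 to 31.7), in 0.514% of all windows, and in 0 of 485 windows of higher genes (upper limit 0.758%). It was in 0 of 17 windows of the mitosis list (upper limit 19.5%) and in 3 of 519 windows of lower genes (0.578%), beside 0.847% for measured genes. As with the other elements, the share in a chosen list is not a separate result.

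Regulators of the cell cycle entry differed among themselves. Ccnd1 (cyclin D1) had signals of 4239, 1285 and 224 (27.6-fold lower), whereas Ccnd2 had 3198, 3538 and 9561 (3.04-fold higher) and Ccnd3 5005, 3324 and 4075 (log2 difference -0.28). The D cyclins, which have overlapping roles at the start of the cycle, thus differed in direction. Without background correction Ccnd1 was 18.1-fold lower. Of 22 cyclins and inhibitors 3 were higher and 5 lower, beside 6.16% and 5.97% of all genes. Cdkn2a was 3.09-fold higher, Cdkn1c 3.70-fold, Cdkn2c 2.40-fold and E2f2 2.80-fold lower, and the p53 target Cdkn1a reached 1.40-fold. Myc, a driver of growth, was detected in imDC alone of the pair, at a dim 186, with 148 in tDC and 132 in mDC. Among 16 apoptosis regulators the inflammatory caspases Casp4 (1527, 3762 and 5564, 4.09-fold) and Casp1 (7783, 9447 and 18033, 2.36-fold) and the necroptosis effector Mlkl (2.19-fold) were higher. Bcl2 was 3.41-fold lower by its brightest probe (509, 240 and 190) and by a log2 value of -0.66 with its second, and the death inducer Bcl2l11 (BIM) reached 1.80-fold lower.

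Ribosomal protein genes were lower by small amounts. All 26 cytosolic ribosomal protein genes measured lay below 0, with 0 at 2-fold and a median log2 difference of -0.41 beside -0.003 for all genes. They ran from Rps20 (-0.05) to Rps9 (-0.81). Of 18 genes of ribosome biogenesis and translation factors 2 were lower, 0 higher and 6 above 0 (median -0.24). Eef1a2, an elongation factor form of muscle and neurons, had signals of 1911, 899 and 163 (20.3-fold lower, 10.8-fold uncorrected), and Eef2 1894, 890 and 785 (2.32-fold lower). The probe of the common form Eef1a1 had 207, 228 and 206, dim beside median signals of 132 in imDC and 125 in mDC. Its nearly equal imDC and mDC signals became 1.20-fold higher through the processing. Signals of different probes do not rank the abundance of these forms. Of 18 tRNA synthetase and amino acid stress genes 3 were lower, Chac1 (2.91-fold), Psat1 (2.14-fold) and Sesn2 (2.03-fold), targets of the factor ATF4, and the median was -0.40. Asns and Shmt2, further targets, stood at 1.93-fold and 2.00-fold lower, the latter just outside the threshold. Among 21 chaperones Hspa1a (at least 2.48-fold) and Hsph1 (3644, 5420 and 7342, 2.10-fold) were higher and Herpud1 2.03-fold lower. Hspa1a was dimmer in mDC (241) than in tDC (1226). Hspa1a and Sesn2 went under 2-fold uncorrected, and Herpud1 with median scaling. Lysosomal genes were lower for 4 of 25, Ctsk (9832, 3905 and 2132, 4.68-fold), Ctsl, Ctsc and Man2b1 (median -0.33). Ctsk encodes the collagen-degrading cathepsin K. Ctsl and Ctsc went under 2-fold uncorrected and Man2b1 with median scaling.

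Adhesion and matrix genes included 7 of 22 higher in mDC and 4 lower. Besides Lox, the metalloproteinases Mmp14 (1245, 1527 and 6210, 5.66-fold) and Mmp2 (918, 1827 and 3567, 4.58-fold) and their inhibitor Timp1 (1274, 1184 and 4655, 4.14-fold) were higher. Mmp14 is the membrane activator of the Mmp2 gelatinase. Mmp12, the macrophage elastase, was 3.10-fold lower (29263, 20344 and 9656), Timp2 6.47-fold lower and Ccdc80, a matrix protein, at least 32.4-fold lower (2647, 593 and 136), or 16-fold uncorrected. The integrin alpha chains went apart, with Itga5 2.72-fold higher and Itgax, the CD11c chain, 3.88-fold lower. Of 23 genes of actin and podosomes 1 was higher and 2 lower, led by Eps8, a capping protein, at least 11.5-fold lower (1018, 278 and 139), or 6.0-fold uncorrected. Cdh1 (E-cadherin), among the 20 genes with the largest differences towards imDC, had 3697, 2253 and 401 (10.3-fold lower).

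Cytokine receptors included 5 of 22 higher in mDC and 4 lower, beside 6.16% and 5.97% of all genes. Il2ra, the CD25 chain, had signals of 232, 257 and 560 (3.82-fold), and Tnfrsf1b (TNF receptor 2) 175, 224 and 330 (3.26-fold, 2.12-fold uncorrected). Both receptors for TGF-beta were lower, Tgfbr2 by 2.87-fold (8912, 4515 and 3119) and Tgfbr1 by 2.26-fold (12240, 8174 and 5514). Il18r1 was at least 4.11-fold lower (2.48-fold uncorrected). The shared GM-CSF receptor chain Csf2rb differed by 1.07-fold, and its partner Csf2ra by 1.72-fold lower. Among AP-1, EGR and nuclear receptor factors, Batf (690, 770 and 1417, 2.50-fold) and Junb (2.10-fold) were higher, and Klf4, Egr2 and Pparg, given above, were the 3 lower. Myeloid lineage factors had 2 of 21 at 2-fold, beside 12.1% of all genes, so the list does not stand out. Both were higher, Cebpe (558, 818 and 1106, 2.46-fold) and Irf8. Spi1 (PU.1) and Id2 differed by log2 values of 0.05 and 0.24. None of 19 chromatin enzymes differed by 2-fold, beside the same 12.1% of all genes, and their median was -0.04.

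Oxidative stress genes linked to NRF2 included 8 of 17 higher in mDC and 1 lower (median 0.56). Hmox1, which degrades haem, had signals of 1537, 3817 and 5460 (3.93-fold), Txnrd1 171, 401 and 350 (3.66-fold, 2.29-fold uncorrected), Nqo1 235, 528 and 467 (3.03-fold) and the glutathione synthesis subunit Gclm 2051, 5712 and 4527 (2.41-fold). Except for Hmox1, the tDC signal of these was above that of mDC. Aldh3a1, an aldehyde dehydrogenase counted in the same list, moved the other way, at 1258, 778 and 145 (at least 14.5-fold lower, 7.43-fold uncorrected). Reference genes stayed within 1.33-fold, with 0 of 8 at 2-fold (median -0.007). Actb stood at 1.05-fold and Tfrc, the transferrin receptor, at 1.33-fold higher.

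Markers were read beside the label of the cells. Of 15 dendritic cell markers 10 were detected, 9 on each array, with 0 higher and 4 lower (median -0.48). Itgax had signals of 1123, 506 and 317, Itgae 1041, 601 and 355 (3.07-fold lower) and Cd209a was at least 2.25-fold lower, which became 1.59-fold uncorrected. Zbtb46, the transcription factor that marks classical dendritic cells, had 1580, 1973 and 1096 (log2 difference -0.41), and Sirpa reached 1.48-fold higher. Flt3, Clec9a, Xcr1 and Cd24a had probes that were detected on neither array. The summed signal of the 10 detected markers was 82156 in imDC and 52918 in mDC. The label was thus met by part of the markers in both states.

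Markers of other cell types were also present. Of 16 macrophage and monocyte markers 8 were detected, 3 higher and 3 lower, with summed signals of 43619 and 55278. Adgre1, a macrophage surface antigen, stood at 2162, 4454 and 15947 (7.99-fold higher) and Ly6c1 at 1776, 4451 and 12454 (7.62-fold higher), while C1qb, C1qc and Mertk were lower. Neutrophil and granulocyte precursor markers were detected for 16 of 18, 7 higher and 2 lower, with summed signals of 72024 and 185909. Chil1 (1888, 19164 and 37808, 21.8-fold) and Camp (615, 1269 and 2725, 5.501-fold) were higher, while the primary granule genes Mpo, Prtn3 and Elane, which mark earlier precursors, differed by log2 values of 0.06, 0.17 and -0.51 and S100a8 and S100a9 by 0.23 and 0.36. The neutrophil genes divided in this way within 1 marker list, and Chil1 and Lcn2 are also known inflammatory response genes. Most of the difference between the summed signals of this list came from Chil1 and Lcn2.

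Mast cell and basophil markers were detected for 8 of 14, with 5 higher, 0 lower, a median of 1.28 and summed signals of 8877 and 40225. Without Hdc, a choice made after seeing the data, the sums were 7510 and 14133. Hdc, the enzyme of histamine synthesis, had 1367, 7421 and 26092 (21.6-fold), and the proteases Cma1, Mcpt8 and Cpa3 differed by 3.06-fold, 2.78-fold and 2.14-fold. Mcpt4, Mcpt1, Tpsab1 and Tpsb2 were not detected on either array. All 3 detected eosinophil markers were higher, the granule proteins Epx (507, 1189 and 2675, 6.83-fold), Prg3 (603, 1100 and 2173, 4.50-fold) and Prg2 (15697, 29511 and 50215, 3.04-fold), while Siglecf, Ccr3 and Il5ra were not detected. Erythroid and platelet markers were higher for 3 of 4 detected, among them Car2 (437, 670 and 1639, 4.99-fold) and Pf4 (280, 353 and 873, 4.69-fold). Stromal markers were higher for 3 of 3 detected (2 of them on both arrays), with Vcam1 at 3.31-fold and Acta2 at 3.15-fold. The collagen genes Col1a1, Col1a2 and Col3a1 were not detected. B cell and T or NK cell markers were detected for 3 of 11 and 5 of 13 and higher for 1 each, Cd79b (4.96-fold) and Nkg7 (2.76-fold, 1.79-fold uncorrected). Of 7 detected plasmacytoid markers, Bst2, Ly6d and Irf8 were higher, Pacsin1 and Cox6a2 lower, and Siglech had a log2 difference of 0.00. Ly6d and Pacsin1 went under 2-fold uncorrected, to 1.68-fold and 1.67-fold, and Cox6a2 was at 3.70-fold in place of 6.66-fold. Whether other cells in the cultures take part in the differences of Hdc, Chil1, Lcn2, Adgre1 or other genes named here was not tested.

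**Figure D5:**
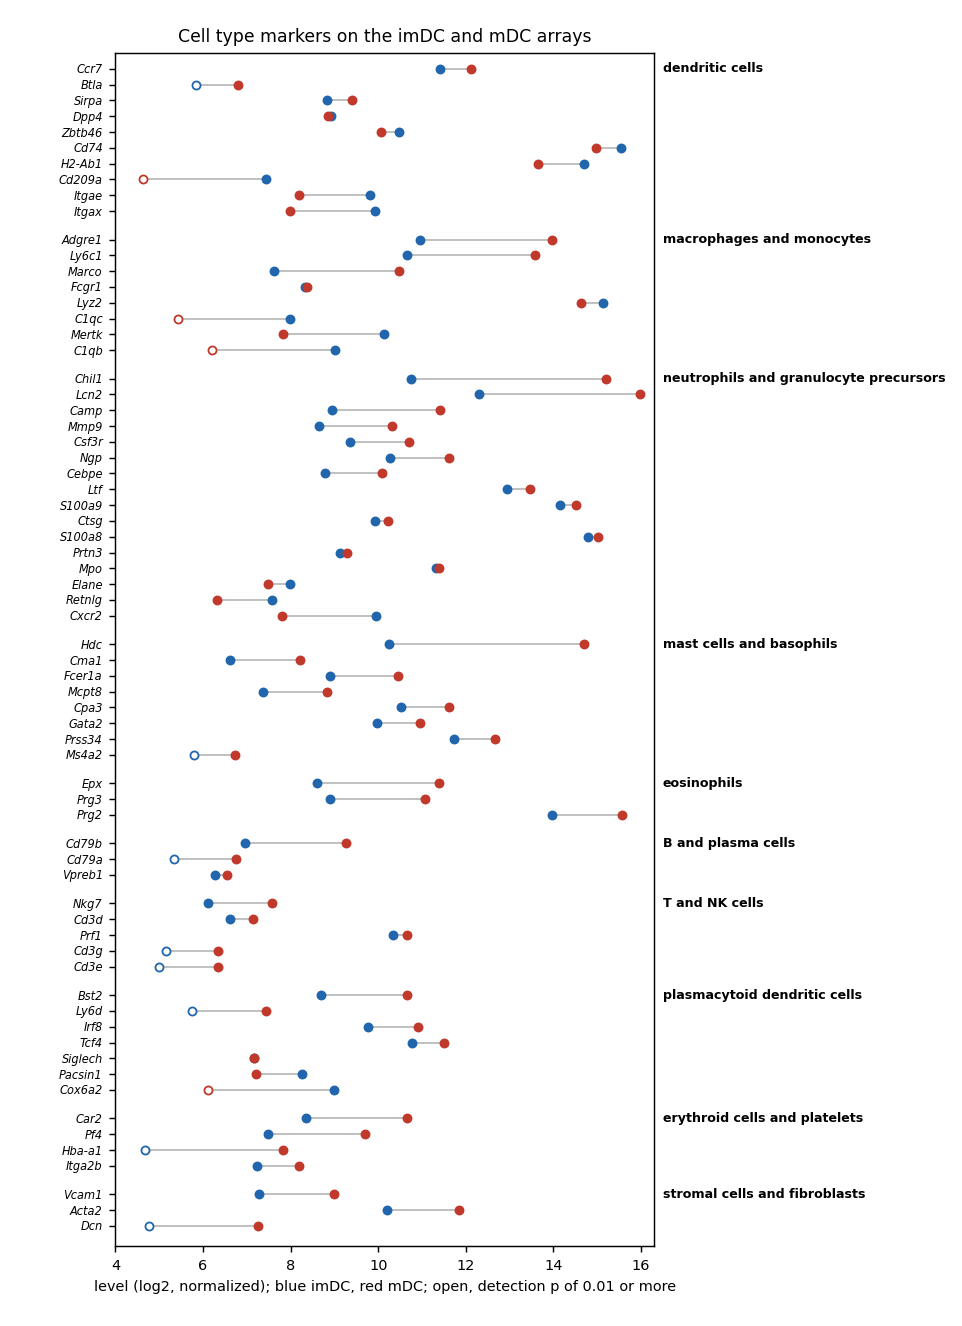
Log2 level on the imDC array (blue) and the mDC array (red) of each detected marker of 10 cell types, 1 array per state, with open points where the detection p was 0.01 or more. Mast cell, eosinophil, erythroid and stromal markers have red points to the right of blue ones, and dendritic cell markers lie on both sides, with Itgax and Itgae at lower levels in mDC.

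Genes that differed together also lay together on chromosomes in some cases. Among 7969 measured genes in RefSeq order (GRCm38.p6), 20 runs of 3 or more neighbours were all higher (14 runs) or all lower (6 runs), with 70 genes in all. The longest was the Oas cluster, with 7 neighbours from Oas2 to Oas1d higher by 2.41-fold (Oas1c) to 7.52-fold (Oas2). The values of Oas3, Oas1b, Oas1a and Oas1d within it are bounds, since mDC alone of the pair detected them. Gbp5, Gbp7, Gbp3, Gbp2b and Gbp2 formed a run of 5, with Gbp2b at 8.87-fold. Susd2, Ddt, Gstt3, Gstt1 and Gstt4, the last 3 being theta-class glutathione transferases, formed another, with Susd2 at least 7.68-fold higher (4.0-fold uncorrected). In that run Ddt, Gstt3 and Gstt1 went under 2-fold uncorrected, to 1.85-fold, 1.92-fold and 1.97-fold. Pf4, Cxcl3, Cxcl1 and Cxcl2, all CXC chemokines, made a run of 4. Among lower runs, Ang, Rnase4, Rnase6 and Rnase2a, secreted ribonucleases, included Rnase2a with signals of 49993, 37689 and 19027 (2.62-fold) and Ang, which went under 2-fold uncorrected (1.73-fold), and the lectin genes Asgr2, Mgl2 and Clec10a were adjacent. Slc6a12 and Slc6a13, transporters of betaine and GABA, lay next to Usp18, the protease that removes Isg15, and were 4.91-fold and 4.09-fold higher. Cstdc4, Csta3 and Csta2, cystatin A relatives, were 2.42-fold to 5.12-fold higher. Members of a cluster often share sequence, so runs of Oas, Gbp and Csta genes can hold signal of related transcripts, and of the 7 Oas genes, Oas1c and Oas1d went under 2-fold without background correction.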

How the data were processed

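Total RNA (550 ng per array, per the labels) of 3 cultures was hybridised to Illumina MouseRef-8 v2 arrays, 1 per state. Per the file headers, the authors deposited a signal intensity and a detection p-value per probe, read with GenomeStudio 2011.1 per the submitters' processing notes. A second set of deposited values by the authors is on a log2 scale, has a median of 6.98 on each array and ranks probes as the intensities do.

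Intensities were corrected with normexp, taking the negative control level from the detection p-values (offset 16), quantile normalized over the 3 arrays and put on a log2 scale with limma 3.58.1 neqc (R 4.3.3, Python 3.11.15). Of 25697 probes, 23978 carried 1 gene symbol in the platform annotation, 0 several and 1719 none. A gene was represented by its brightest detected probe. A gene detected on 1 array of the pair was set against the higher of the other array's lowest detected value and its own value there, which gives a bound. With 1 array per state there is no test.

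The rule for named genes took those with the 20 largest differences in either direction among genes of both arrays and the 12 largest bounds, at most 6 members of a list at 2-fold in a direction, all members of the regulatory factor, costimulation, class II, reference and marker lists, genes of neighbour runs (of which the text prints some), and the 3 genes nearest each threshold, leaving out predicted models. Other list members and all families were named after their values were seen, and the members and lists were chosen with earlier results of these data known. Alternatives left out the background correction, used median scaling, an offset of 50, the authors' log2 values, the pair of arrays alone, a detection p under 0.05, detection on both arrays, no filter, or the mean of a gene's probes. Promoter windows came from RefSeq (GRCm38.p6). The procedure was tested on simulated data.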

Additional observations from a re-analysis of the deposited data

Results flagged for a closer look

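Probes that carry no gene symbol lie outside every comparison above. Of 678 such probes detected on at least 1 of the 2 arrays, 37 were at least 2-fold higher in mDC and 52 at least 2-fold lower. Among named genes 6.16% were higher and 5.97% lower, so the unnamed probes differed about as often and do not stand out. They are counted here only because no comparison above holds them. Their genes were not analysed here.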

How the results depend on the processing

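No paired analysis was possible because each state has 1 array, and for the same reason no replicate could be left out. The counts of 491 higher and 476 lower genes became 369 and 340 without background correction, 372 and 349 with the authors' log2 values, 419 and 401 with an offset of 50 and 450 and 556 with median scaling, where the share higher among genes at 2-fold was 44.7% in place of 50.8% and the median of all genes -0.056. They were 492 and 477 from the pair of arrays alone, 490 and 467 when probes of a gene were averaged, 533 and 539 at a detection p under 0.05 and 401 and 394 with detection on both arrays. With no filter on dim probes, lists with a median of at least 0.5 (either way) numbered 15 in place of 25, genes at 2-fold in the brightest intensity class 436 in place of 186, and neighbour runs 11 in place of 20, and runs were 13 with detection on both arrays. That setting places 16593 genes, most of the added ones dim, so the intensity classes differ by construction, and the cause of the other shifts was not tested. Of 360 genes named, 297 were at 2-fold, 48 of these were under 2-fold in at least 1 setting, and 0 changed sign. Without background correction 69 shrank by over 1.5 times. For dim genes the signal over the negative control beads is small, which limits their folds.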

Other observations

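Gene families that partly overlap the lists were also counted, chosen after their values were seen, beside 6.16% of all genes higher and 5.97% lower. Of 21 glutathione transferases, which couple glutathione to reactive compounds, 7 were higher in mDC and 1 lower. Gstm2 had signals of 566 in imDC, 368 in tDC and 2589 in mDC (5.81-fold higher), Gsta3 135, 184 and 532 (at least 7.02-fold higher) and Mgst3, a microsomal member, 1583, 986 and 409 (4.02-fold lower). Of 158 genes with a solute carrier symbol 21 were higher and 13 lower, counts that include Slc11a1, Slc11a2 and Slc2a6 given above. The set was taken by symbol and holds some genes that are not transporters, such as Slc9a3r2, which counts among the lower ones. Slc1a2, a glutamate transporter, had 264, 296 and 1864 (11.2-fold higher) and the zinc importer Slc39a4 474, 1736 and 2896 (8.08-fold higher). The kinesins, motors that include those of the spindle, were lower for 5 of 18 and higher for 0, among them Kif23, Kif11 and Kif22 of the mitosis list. Of 10 selenoproteins 1 was lower and 0 higher, and of 19 TRIM proteins 2 were lower and 3 higher.

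Among matrix and membrane genes, Col5a1, a fibrillar collagen chain, had 361, 329 and 1608 (6.34-fold higher), and the claudin Cldn1, a tight junction protein, 1653, 1700 and 321 (5.78-fold lower). Car4, a membrane carbonic anhydrase, had 15663, 15711 and 4521 (3.50-fold lower), whereas Car2 was higher. Of 7 PARP genes 3 were higher, among them Parp9 and Parp14 of the antiviral list and Parp12 with 470, 340 and 1341 (3.73-fold). In Cldn1 and Car4 the tDC signal was close to that of imDC.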
